A study of Rattus norvegicus with 4 samples.

Results

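The 10 genes described here belong to the cell's answer to a shortage of amino acids and to unfolded protein in the endoplasmic reticulum (ER). They were chosen by name, but with earlier results of these data known. Their counts, set below beside the shares over all genes, are therefore descriptions and no independent support. The 10 are the amino acid enzymes Asns, Psat1 and Phgdh, the stress regulators Atf4, Ddit3 and Trib3, and the ER genes Hspa5, Hsp90b1, Calr and Xbp1. Probes were matched to them through the transcript accession of each probe. Of the 10 genes, 9 had a named probe, among 8927 genes named on the array. Hsp90b1 had 2 probes and each of the others 1, and every one of these 10 probes was well above background on all 4 arrays. No probe carried the name of Xbp1, so no level of it is given.

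Gene expression was compared in cultured cells of the Fisher 344 rat, in a study whose title concerns the making of insulin by neuronal progenitors from the adult hippocampus and the olfactory bulb. Hippocampal neural stem cells are called HPC NSC below and the neurons made from them HPC neu. Olfactory bulb neural stem cells are called OB NSC and the neurons made from them OB Neu. Neuron is used below as the label's word only. The summed level of 11 measured neuron genes was 74.1 and 64.2 on the stem cell arrays and 8.89 and 6.66 on the arrays labelled neurons (hippocampus first). Mapt and Gap43 weighed most in the sums of the stem cell arrays. By 2-fold or more, 5 of the 11 genes were lower and 2 higher in hippocampal cells, and 7 and 3 in olfactory bulb cells. Most genes past 2-fold thus go against the label, while Snap25 and Stmn2 go with it in both sources. The labels name no treatment, time in culture or age. Each group was 1 Agilent Cy3 array of total RNA mixed from 3 independent experiments, so no group has a spread between cultures and no single difference has a replicate check. Per the file headers, 1 slide carried the stem cell RNA of both sources and another carried the neuron RNA. Cell state cannot be told apart from slide, and the comparisons between sources are free of this because their arrays share a slide.

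The integrated stress response starts when a kinase such as Gcn2, which senses uncharged tRNA, or Perk, which senses unfolded protein in the ER, phosphorylates the translation initiation factor eIF2. General translation falls while the transcription factor ATF4 is translated more, and ATF4 turns on genes for making, importing and charging amino acids. The unfolded protein response has 2 more arms, ATF6 and the kinase Ire1 with its target Xbp1, which raise the ER chaperones. Phgdh is known to be strong in neural stem cells and astrocytes and weak in most neurons. Messenger RNA on an array shows neither the translation of Atf4 nor the splicing of Xbp1.

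The ATF4 branch and the branches through ATF6 and Xbp1 are known for different promoter motifs, which are described here. Whether these motifs have a part in the levels on these arrays was not tested. The ER stress response element, through which ATF6 and XBP1 act together with the factor NF-Y, was searched as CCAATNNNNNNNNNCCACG, and the C/EBP-ATF response element (CARE), which ATF4 binds, as TGATGNAA. Both were searched on both strands of the 250 bases before each gene's start in RefSeq's promoter table of the rat assembly GRCr8, which held all 10 genes. The ER stress response element was found in 22 of 33469 such windows (0.0657%), and 4 of these belonged to Hspa5, Hsp90b1, Calr and Xbp1, the ER genes. Hsp90b1 held it at 2 places. The matches are written 5′ to 3′ along the strand that carries the motif, with the fixed letters of the motif in capitals.
Hspa5, 43 bases before the start, gene strand: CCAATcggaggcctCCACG
Hsp90b1, 176 bases before the start, gene strand: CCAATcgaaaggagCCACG
Hsp90b1, 72 bases before the start, opposite strand: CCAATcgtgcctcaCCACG
Calr, 232 bases before the start, opposite strand: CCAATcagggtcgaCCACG
Xbp1, 65 bases before the start, gene strand: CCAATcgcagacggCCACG

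The CARE was found in 1139 of the windows (3.40%), and Trib3 was the only one of the 10 genes with it, as TGATGTAA on the opposite strand, 21 bases before the start. The whole windows of the chaperones and of Trib3 follow, written along the gene from 250 bases before the start, with the motif letters in capitals. A motif on the opposite strand shows its complement read backwards.
Hspa5, chr3:38452766-38453015, plus strand: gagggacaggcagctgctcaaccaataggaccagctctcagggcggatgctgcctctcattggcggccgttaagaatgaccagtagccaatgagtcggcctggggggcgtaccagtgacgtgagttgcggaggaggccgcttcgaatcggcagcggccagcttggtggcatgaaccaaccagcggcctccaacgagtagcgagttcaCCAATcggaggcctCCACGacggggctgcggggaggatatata
Hsp90b1, chr7:23012294-23012543, minus strand: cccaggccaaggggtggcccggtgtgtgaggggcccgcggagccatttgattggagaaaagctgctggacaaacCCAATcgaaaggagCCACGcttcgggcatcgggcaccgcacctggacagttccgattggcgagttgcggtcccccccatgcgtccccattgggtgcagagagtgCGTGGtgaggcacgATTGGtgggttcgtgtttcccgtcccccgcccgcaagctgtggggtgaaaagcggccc
Calr, chr19:40213117-40213366, plus strand: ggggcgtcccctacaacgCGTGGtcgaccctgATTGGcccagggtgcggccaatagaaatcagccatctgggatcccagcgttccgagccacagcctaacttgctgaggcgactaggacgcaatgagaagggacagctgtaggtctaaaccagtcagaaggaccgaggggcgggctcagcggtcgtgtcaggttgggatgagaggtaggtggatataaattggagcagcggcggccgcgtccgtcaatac
Trib3, chr3:161275534-161275783, minus strand: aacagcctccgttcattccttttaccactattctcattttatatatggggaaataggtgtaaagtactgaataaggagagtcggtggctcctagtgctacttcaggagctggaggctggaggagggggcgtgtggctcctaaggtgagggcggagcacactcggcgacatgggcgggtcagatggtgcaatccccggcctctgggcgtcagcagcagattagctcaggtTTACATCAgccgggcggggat
These matches describe letters in a window and were not tested for binding. Asns, Psat1, Phgdh, Atf4 and Ddit3 held neither motif in these 250 bases.

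Levels are log2 of the processed spot intensity minus the 75th percentile of the same array, so a level of 0 equals that percentile, and levels of different probes are not compared. Of all probes, 60.2% to 74.0% were well above background on the 4 arrays. The 75th percentile was 486.6 intensity units on HPC NSC, against 816.1 on OB NSC, 805.4 on HPC neu and 725.1 on OB Neu, and every comparison with HPC NSC depends on that scaling. For probes printed 10 times, the SD of log2 intensity among spots had a median of 0.0612 to 0.0939 per array, which gives an SD of 0.133 for a difference between single spots at the noisiest array. This is noise of spots and not of cultures.

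Neurons were first compared with the stem cells they came from. All 3 amino acid enzymes and all 3 stress regulators were lower in neurons by 2-fold or more in both hippocampal and olfactory bulb cells, by between 2.16-fold and 8.53-fold. On this scaling the log2 differences of the 3 measured ER chaperones lay between -0.71 and 1.31, and Calr was higher in olfactory bulb neurons. Hsp90b1 passed 2-fold lower in olfactory bulb cells with median scaling (-1.25) and spike-in scaling (-1.74), which made 7 genes lower there. Of all 7022 genes compared there, 2363 were lower with median scaling and 3306 with spike-in scaling, in place of 1402. Of the 9 genes measured, 6 were lower and 0 higher in hippocampal cells, where 26.8% of 6658 genes compared were lower and 21.8% higher. In olfactory bulb cells 6 were lower and 1 higher, where 20.0% of 7022 genes were lower and 26.8% higher. The same 6 genes were lower in both sources, as were 16.8% of the 6568 genes compared in both. The median log2 difference of the 9 genes was -1.84 in hippocampal and -1.71 in olfactory bulb cells, against -0.32 and 0.07 for all genes.

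**Figure D1:**
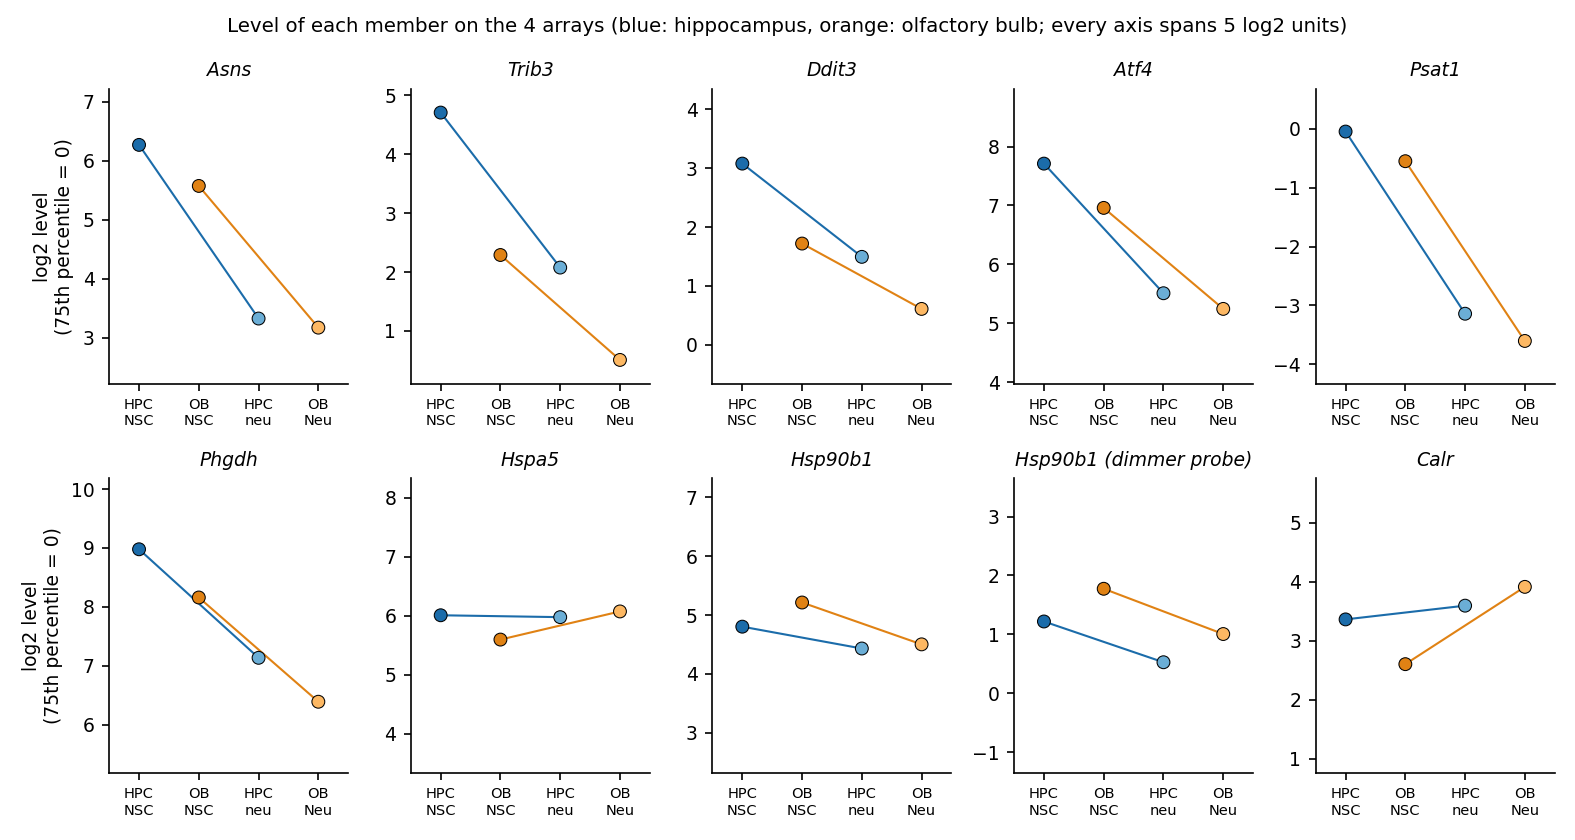
Level of each measured gene on the 4 arrays, as log2 intensity minus the array's 75th percentile, with 1 point per array, lines joining stem cells to neurons of one source, and every vertical axis spanning 5 log2 units. Asns went from 6.27 and 5.57 on the stem cell arrays to 3.32 and 3.17 on the neuron arrays, while Hspa5 lay between 5.59 and 6.07 on all 4.

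Asns makes asparagine from aspartate and is a classic ATF4 target. Its level was 6.27 in HPC NSC, 5.57 in OB NSC, 3.32 in HPC neu and 3.17 in OB Neu. Both stem cell arrays were high and both neuron arrays low, and the neurons of the 2 sources differed by 0.15, within the range of 2 SD between spots (0.27). Asns was 7.72-fold lower in neurons in hippocampal cells (log2 difference -2.95) and 5.30-fold lower in olfactory bulb cells (-2.41). In these comparisons 1.59% and 4.39% of genes had a lower difference.

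Psat1 and Phgdh are enzymes of serine synthesis, Phgdh catalysing the first step and Psat1 the second. The level of Psat1 was -0.05 in HPC NSC, -0.55 in OB NSC, -3.14 in HPC neu and -3.60 in OB Neu. Its drop was 8.53-fold and 8.29-fold, the largest of the 9 genes on this scaling, with 1.23% and 2.41% of genes lower still. Its intensity on the neuron arrays was 91.4 and 59.7 units, where the dimmest probes well above background had 15.6 and 8.52, and with normexp background correction the log2 differences were -2.26 and -2.12 in place of -3.09 and -3.05. Asns then dropped more in both sources (-2.84 and -2.42), as did Trib3 in hippocampal cells (-2.54). The level of Phgdh was 8.98 in HPC NSC, 8.16 in OB NSC, 7.14 in HPC neu and 6.39 in OB Neu. Phgdh was lower in neurons 3.59-fold and 3.41-fold, and the order of the arrays was the same as for Psat1. Pseudogenes were counted in RefSeq's gene table by symbols made of the gene's name, -ps and a number. There were 1 of Psat1, 6 of Phgdh and 2 of Hsp90b1, and copies under other symbols were not counted. A probe may also bind RNA from such a copy.

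Atf4 is the transcription factor at the centre of the integrated stress response. Its level was 7.71 in HPC NSC, 6.96 in OB NSC, 5.51 in HPC neu and 5.24 in OB Neu. The stem cell arrays were again both above the neuron arrays, by 4.60-fold in hippocampal and 3.28-fold in olfactory bulb cells. On the unscaled intensities the 2 stem cell arrays were close for Atf4 (101868 and 101494 units) and for Asns (37595 and 38903).

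Trib3, a pseudokinase induced through ATF4 and CHOP that restrains Akt and ATF4 signalling, had levels of 4.71 in HPC NSC, 2.29 in OB NSC, 2.08 in HPC neu and 0.51 in OB Neu. HPC NSC stood far above the other 3 arrays, and OB NSC and HPC neu differed by 0.21, within 2 SD between spots. Trib3 was lower in neurons 6.19-fold in hippocampal and 3.44-fold in olfactory bulb cells. Ddit3, which encodes CHOP, a factor that promotes cell death under lasting stress, had levels of 3.08, 1.72, 1.49 and 0.61 on the arrays in the same order. Its drop was the smallest among the 6 genes, with log2 differences of -1.58 and -1.11, and 11.9% and 17.5% of all genes had a lower difference.

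The ER chaperones Hspa5, Hsp90b1 and Calr fold and retain proteins in the ER lumen, Hspa5 (BiP) being the chief Hsp70 there, Hsp90b1 (GRP94) the Hsp90, and Calr (calreticulin) a lectin chaperone that binds calcium. The level of Hspa5 was 6.01 in HPC NSC, 5.59 in OB NSC, 5.98 in HPC neu and 6.07 in OB Neu. All but OB NSC lay within 0.10 of each other. The difference between neurons and stem cells was -0.03 in hippocampal and 0.48 in olfactory bulb cells.

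Hsp90b1 had a level of 4.80 in HPC NSC, 5.21 in OB NSC, 4.43 in HPC neu and 4.50 in OB Neu on its brighter probe. Both neuron arrays were below both stem cell arrays, with log2 differences of -0.37 in hippocampal and -0.71 in olfactory bulb cells, short of 2-fold on this scaling. The hippocampal value was positive with quantile normalization (0.28) and spike-in scaling (0.07). The dimmer probe gave the same order of the arrays, with 1.22, 1.77, 0.53 and 1.01, and differences of -0.69 and -0.77. Calr had 3.36 in HPC NSC, 2.60 in OB NSC, 3.60 in HPC neu and 3.92 in OB Neu. Both neuron arrays were above both stem cell arrays, by 0.23 in hippocampal cells, which is within 2 SD between spots, and by 1.31 (2.48-fold) in olfactory bulb cells. The higher value of Calr in olfactory bulb neurons was 0.29 with scaling to spike-in controls and 0.77 with median scaling, both short of 2-fold.

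**Figure D2:**
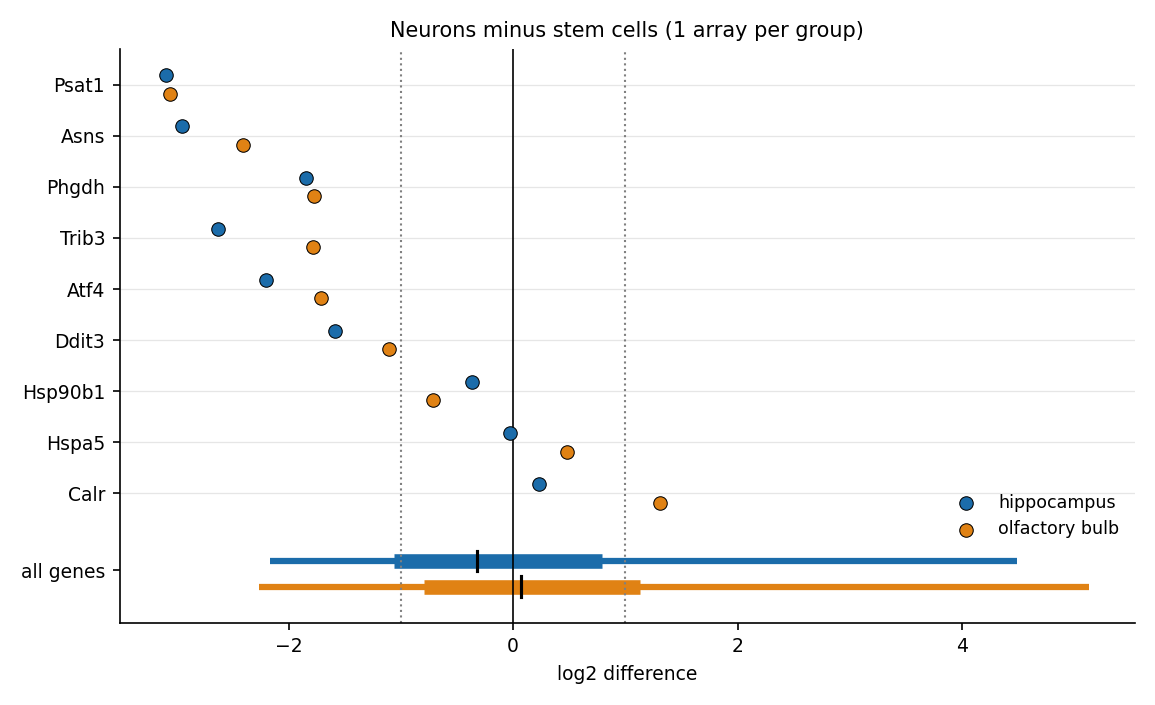
Log2 difference of neurons minus stem cells for each measured gene, blue for hippocampus and orange for olfactory bulb. Bars run from the 25th to the 75th (thick) and from the 5th to the 95th percentile (thin) of all genes with their median as a tick, and dotted lines mark 2-fold. The 6 amino acid and stress regulator genes lie left of the lower dotted line in both sources, and the chaperones lie between -0.71 and 1.31.

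The chaperones stood above the other 6 genes in both sources. The nearest pair was Ddit3 (-1.58 and -1.11) and Hsp90b1 (-0.37 and -0.71), a gap of 1.21 in hippocampal and 0.40 in olfactory bulb cells. A shift of a whole array cannot change this gap. Between Ddit3 and Hsp90b1 it was 1.48 and 0.62 under quantile normalization and 1.26 and 0.33 under normexp. Under quantile normalization Phgdh (-0.87) was the nearer gene in hippocampal cells, at a gap of 1.15.

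The only test the 4 arrays allowed was an additive limma fit with cell state and source as its terms. It has 1 residual degree of freedom, which is the difference between the 2 sources' changes and not a spread between cultures. With Benjamini-Hochberg adjustment over 7112 genes, limma called 12.1% of genes lower and 19.4% higher in neurons, and 5 of the 9 members, all lower. All 9 members were well above background on all 4 arrays. Fitted to the 5495 such genes alone, limma called 1182 genes lower and 796 higher. In the fit to 7112 genes the state term of Psat1 was -3.07 ± 0.42 (log2, SE, limma adjusted p = 0.00259). It was -2.68 ± 0.44 for Asns (limma adjusted p = 0.00504) and -2.21 ± 0.45 for Trib3 (limma adjusted p = 0.0126). For Atf4 it was -1.96 ± 0.43 (limma adjusted p = 0.0164) and for Phgdh -1.81 ± 0.42 (limma adjusted p = 0.0201). Ddit3, at -1.35 ± 0.43, had a limma adjusted p of 0.0576. It was called by limma in 3 of 7 alternatives (adjusted p from 0.0148 to 0.163): median scaling, normexp and genes above background on all arrays. Each of these had 6 members called. Lower calls over all genes were also more, 1764 of 7112 with median scaling and 1087 of 7112 with normexp, against 860 of 7112. With genes above background on all arrays they were 1182 of 5495. No chaperone was called, with limma adjusted p-values of 0.726 for Hspa5, 0.371 for Hsp90b1 and 0.254 for Calr. Under quantile normalization limma no longer called Atf4 (adjusted p = 0.0671, over 7 alternatives 0.000168 to 0.0671) and Phgdh (adjusted p = 0.0987, range 0.000659 to 0.0987). Spike-in scaling also lost Phgdh, while Psat1, Asns and Trib3 were called in 7 of 7 alternatives. Over all 7112 genes, lower calls were 503 under quantile normalization and 541 under spike-in scaling.

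Other genes of the same pathways were then counted, from lists chosen with earlier results of these data known. Among 22 measured genes of the amino acid response other than those above, 12 were lower and 6 higher by 2-fold or more in hippocampal neurons, and 9 and 6 in olfactory bulb neurons. Their medians were -1.12 and -0.15, and limma called 6 lower and 5 higher. Over the 8 ways of processing, 9 to 13 were lower in hippocampal and 4 to 13 in olfactory bulb cells, with medians from -1.58 to -0.68 and from -1.18 to -0.06. limma called 9 lower and 3 higher with median scaling, and 2 lower and 2 higher with quantile normalization. Slc7a5, the light chain of the leucine transporter, was lower (-2.63 and -2.24, hippocampal value first). In contrast, the cationic amino acid transporter gene Slc7a3 gave at least 5.27 in hippocampal cells, because it was not well above background in HPC NSC, and 4.46 in olfactory bulb cells. Nupr1, a stress-induced chromatin protein gene, was higher by 2.14 and 4.87, and the stress cytokine gene Gdf15 by 4.94 and 6.31. The list therefore held large differences in both directions. For this list and those below, the shares over all genes are 26.8% lower and 21.8% higher in hippocampal cells. In olfactory bulb cells they are 20.0% lower and 26.8% higher. The 6 higher genes of the 22 in each source lie near these shares. Between 5495 and 8927 genes were compared over the 8 ways of processing. Of these, 974 to 2856 were lower in hippocampal and 1161 to 3306 in olfactory bulb cells. Of 7112 genes limma called 860 lower and 1380 higher on this scaling, and 1764 and 1098 with median scaling. The counts were 541 and 1012 with spike-in scaling, 503 and 939 with quantile normalization, and 1087 and 1106 with normexp.

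The serine, glycine and folate enzymes showed both directions too. Of 7 measured, 4 were lower and 2 higher in each source, and limma called 3 lower and 2 higher. Psph, the last enzyme of serine synthesis after Phgdh and Psat1, was lower (-3.19 and -2.73). Shmt2, the mitochondrial enzyme that turns serine into glycine, was lower (-2.57 and -2.46). The higher genes were Amt, of the glycine cleavage system (2.97 and 2.61), and Cbs, which uses serine to make cystathionine (at least 3.72 and 5.05). Phgdh, Psat1 and Psph, the 3 steps from glycolysis to serine, were all lower in both sources.

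The aminoacyl-tRNA synthetases of the cytosol, which charge tRNA, passed 2-fold in the lower direction only. Of 13 measured, 8 were lower and 0 higher by 2-fold or more in each source, with medians of -1.19 and -1.22. Counts of lower synthetases ran from 4 to 11 in hippocampal and from 7 to 13 in olfactory bulb cells over the 8 ways of processing, and none was higher by 2-fold in any of them. Limma called 4, namely Tars1 (-2.38 and -2.33), Yars1 (-2.23 and -1.70), Sars1 (-1.99 and -1.28) and Kars1 (-1.47 and -1.30), the genes for the threonine, tyrosine, serine and lysine enzymes. Kars1 was called at an adjusted p of 0.0493. limma called 9 with median scaling, 8 with normexp, and 2 with spike-in scaling and with quantile normalization, all lower.

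The sensors gave counts that rest on scaling. Of 8 measured eIF2 kinases, eIF2 subunits, proteases and sensors, 0 were lower and 3 higher in hippocampal neurons, and 1 was lower and 1 higher in olfactory bulb neurons. Median scaling gave 5 lower and 1 higher in hippocampal cells, and spike-in scaling 5 lower and 0 higher in olfactory bulb cells. The kinase gene Eif2ak2 (PKR), which senses double-stranded RNA, differed by 2.50 and 1.02 and was the only one limma called. That call was lost with median, spike-in and quantile processing. Eif2s1, the eIF2 subunit that these kinases phosphorylate, had -0.91 and -1.16.

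The other ER folding genes resembled the chaperones above in that few passed 2-fold on this scaling. Of 15 measured, 2 were lower and 2 higher in each source, with medians of 0.11 and 0.32. Over the 8 ways of processing these medians ran from -0.35 to 0.55 and from -0.71 to 0.50. Between 1 and 5 genes were then lower in hippocampal and between 2 and 5 in olfactory bulb cells, with 2 to 3 and 1 to 3 higher. Serpinh1, the collagen chaperone HSP47, was higher by 7.26 and 8.42, and Dnajb9, a co-chaperone of BiP, by 2.61 and 1.65. Creld2, a cysteine-rich ER protein gene, was lower (-1.58 and -1.35). Among 7 measured genes of ER-associated degradation, Herpud1 was lower (-1.43 and -1.20) and Selenos had 1.15 in olfactory bulb cells, and limma called 0 of 7, but 2 lower with median scaling and 1 with normexp.

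**Figure D3:**
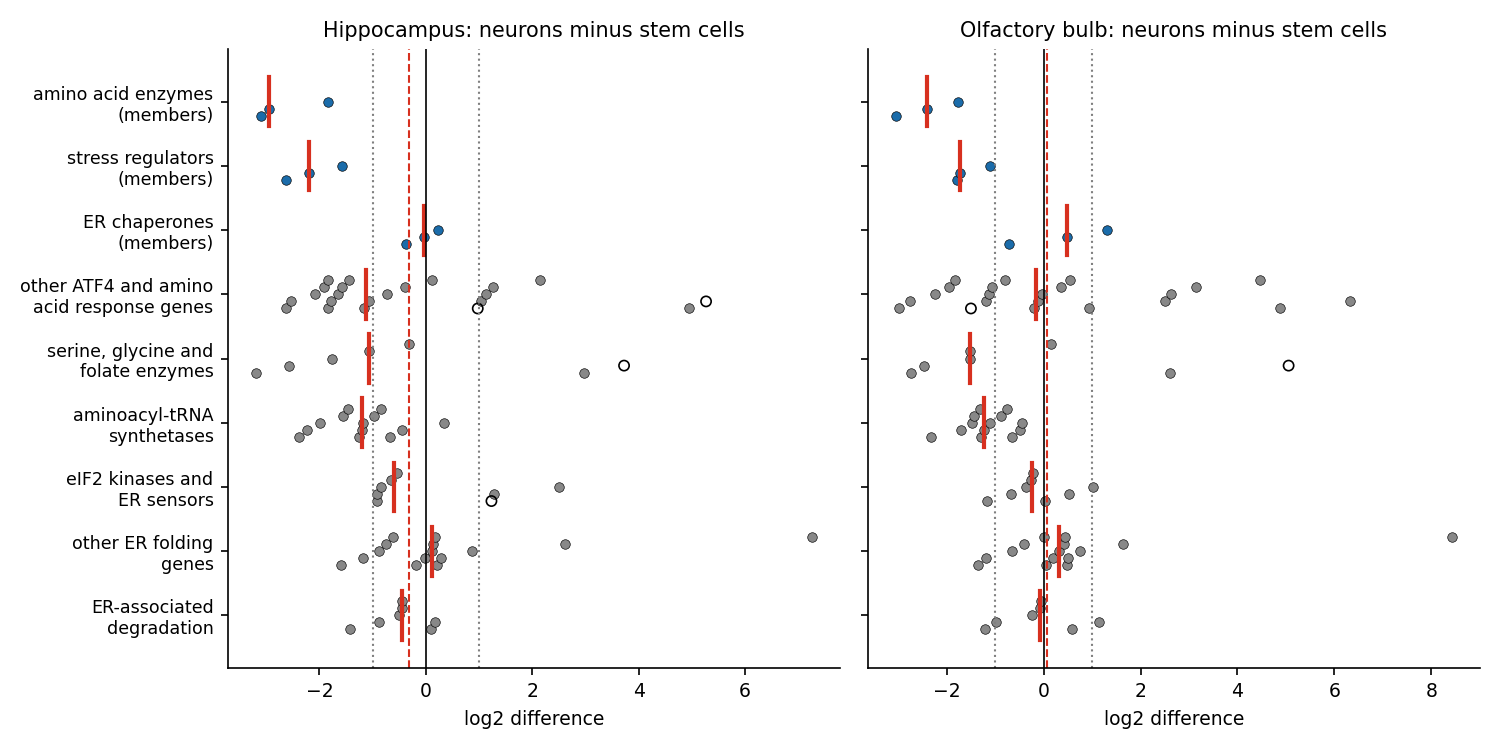
Log2 difference of neurons minus stem cells for every measured gene of 9 groups, 1 point per gene, with open points for bounds and red ticks for group medians. The dashed red line is the median of all genes and dotted lines mark 2-fold. The amino acid enzymes, regulators and tRNA synthetases lie mostly to the left, and 11 of the 15 other ER folding genes lie inside 2-fold in each source, with Serpinh1 far to the right at 7.26 and 8.42.

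Markers of other cell types and of division moved with the same comparison. All 5 measured dividing-cell genes, among them Ccnb1 and Pcna, were lower in neurons in both sources, and their summed level (each gene relative to the 75th percentile, not in logs) was 274.4 and 220.4 on the stem cell arrays against 36.4 on each neuron array. All 7 measured fibroblast and pericyte genes were higher, with a summed level of 0.694 and 0.445 on the stem cell arrays against 569.1 and 600.2 on the neuron arrays, and 5 of the 7, Col3a1 and Dcn among them, were not well above background on either stem cell array. Of 8 astrocyte genes, 6 were higher in hippocampal and 7 in olfactory bulb neurons and 1 was lower in each, with Gfap not well above background in stem cells. Of the 11 neuron genes, 5 were lower and 2 higher in hippocampal and 7 lower and 3 higher in olfactory bulb neurons. Tubb3 had -2.73 and -3.08 and Mapt -3.62 and -6.44, while Snap25 was higher by 3.96 and 3.08 and Stmn2 by at least 5.83 and 4.97. Of 7 measured stem cell genes, 4 were lower and 2 higher in each source. Of 6 microglia genes, 3 were higher in hippocampal and 4 in olfactory bulb neurons, at a summed level of 4.29 to 5.68 against 0.451 to 0.543 in stem cells, and Itgam was not well above background on any array. The part of these genes' cells in the results for the 9 members was not tested. In bulk RNA, fewer cells of a type and less RNA per cell cannot be told apart.

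Olfactory bulb and hippocampal cells were then compared within each state. Trib3 was lower in olfactory bulb cells in both states, 5.34-fold in stem cells and 2.96-fold in neurons. Ddit3 was lower 2.56-fold in stem cells and 1.85-fold in neurons. Of the 9 genes, 2 were lower and 0 higher by 2-fold or more between stem cells, where 6.92% of 6028 genes were lower and 4.16% higher. Between neurons 1 was lower and 0 higher, where 8.00% of 7000 genes were lower and 7.64% higher. The medians of the 9 genes were -0.75 between stem cells and -0.27 between neurons, against -0.43 and -0.01 for all genes.

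Trib3 at -2.42 between stem cells had 0.581% of genes below it, and at -1.57 between neurons 4.31%. Trib3 stayed lower by more than 2-fold in both states under all 8 ways of processing, from -2.44 to -1.55 between stem cells and from -2.17 to -1.52 between neurons. For Ddit3, 2.84% and 9.21% of genes were below it, and scaling to spike-in controls brought its stem cell difference from -1.36 to -0.49. The 3 regulators and 3 enzymes all had HPC NSC highest, then OB NSC, then HPC neu and OB Neu lowest, but the stem cell part of this order was not stable for most. With spike-in scaling, Asns, Atf4, Psat1 and Phgdh were higher in OB NSC than in HPC NSC by 0.17, 0.11, 0.36 and 0.04, in place of -0.70, -0.75, -0.50 and -0.82.

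**Figure D4:**
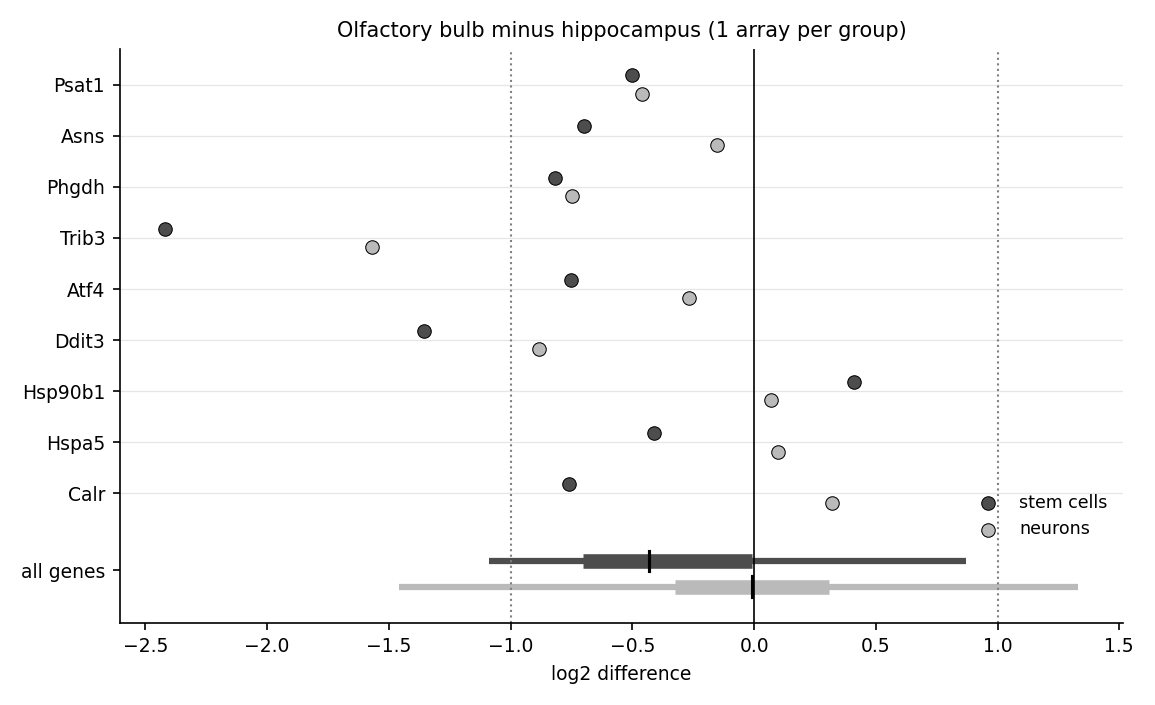
Log2 difference of olfactory bulb minus hippocampus for each measured gene, dark for stem cells and light for neurons, with bars from the 25th to the 75th and from the 5th to the 95th percentile of all genes and dotted lines at 2-fold. Trib3 lies at -2.42 and -1.57 and Ddit3 at -1.36 and -0.88, while the other genes lie inside 2-fold.

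Among the chaperones, Hsp90b1 was higher in OB NSC than in HPC NSC by 0.41, where 88.7% of genes had a lower difference, and its dimmer probe gave 0.56. Hspa5 and Calr were lower in OB NSC (-0.41 and -0.76) and higher in OB Neu than in HPC neu by 0.10 and 0.32. With spike-in scaling both were higher in OB NSC, by 0.45 and 0.10, and lower in OB Neu (-0.51 and -0.29).

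The limma fit called 0.00% of 7112 genes for source in either direction, with 394 genes at an unadjusted p under 0.05 and a smallest adjusted p of 0.473. Trib3, at -1.99 ± 0.45, had an unadjusted limma p of 0.00397 and an adjusted p of 0.773. Limma called it with normexp correction (adjusted p = 0.00429) and with genes well above background on all 4 arrays only (adjusted p = 0.00478), the adjusted p ranging from 0.00429 to 1.00 over 7 alternatives. Ddit3, at -1.12, had an unadjusted limma p of 0.0388 and an adjusted p of 0.875. With normexp, limma called 55 of 7112 genes lower and 14 higher for source. With genes well above background on all 4 arrays only, it called 62 of 5495 lower and 20 higher.

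The pathway lists were also compared between sources. Among the amino acid response genes, between stem cells 8 of the 22 were lower and 0 higher in olfactory bulb cells by 2-fold or more, with a median of -0.88, but over the 8 ways of processing between 1 (spike-in scaling) and 8 were lower. Gdf15 had -2.18 and Nupr1 -1.82. Between neurons 4 were lower and 1 higher. The other lists held 1 gene past 2-fold each at most between stem cells on this scaling, namely Psph (-1.05) and, among the sensors, Impact (1.34, named after its value was seen). With spike-in scaling 3 sensor genes were higher there. None of the 13 tRNA synthetases, 15 ER folding genes or 7 degradation genes differed by 2-fold between sources in either state on this scaling, although spike-in scaling put up to 3 ER folding genes above 2-fold between stem cells and up to 6 synthetases below it between neurons.

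The change with cell state also varied with source. The olfactory bulb change minus the hippocampal change was 0.54 for Asns, 0.85 for Trib3, 0.47 for Ddit3, 0.49 for Atf4, 0.04 for Psat1 and 0.07 for Phgdh. The median of all genes was 0.34, and the values of Psat1 and Phgdh lie within 2 SD between spots. Hspa5 had 0.51, Hsp90b1 -0.34 and Calr 1.08. On this scaling Calr alone among the 9 reached 1 log2 unit, as did 20.6% of 5495 genes. These signs rest on scaling. With spike-in scaling all 9 values were negative, from -0.62 for Trib3 to -1.43 for Psat1 among the enzymes and regulators, and Calr had -0.39 and Hsp90b1 -1.81. Quantile normalization gave -0.10 for Atf4, -0.09 for Psat1, -0.38 for Phgdh and 0.90 for Calr. None of these differences could be tested with 1 array per group.

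**Figure D5:**
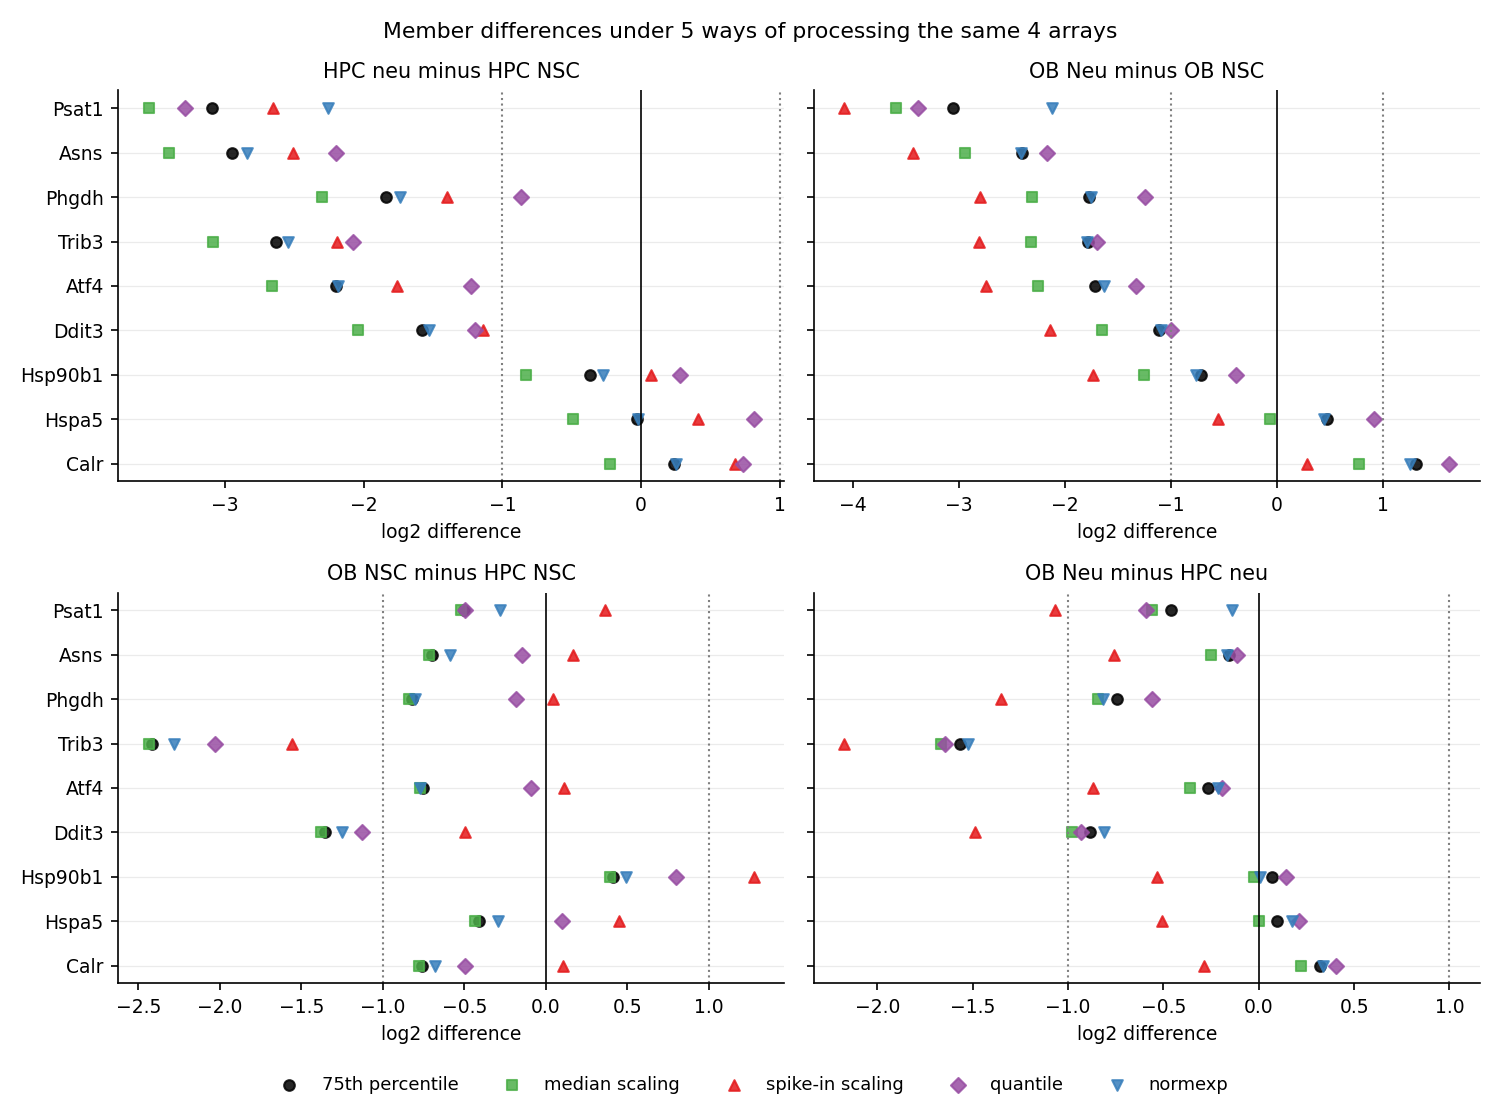
Log2 difference of each measured gene in the 4 comparisons under 5 ways of processing, with 1 symbol for each and dotted lines at 2-fold. The 6 enzymes and regulators stay negative in both state comparisons, Trib3 stays left of -1 in all 4 panels, and spike-in scaling (triangles) moves the stem cell comparison of sources upward, Hsp90b1 to 1.27.

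The plot of the 5 ways of processing shows which values rest on scaling. In the state comparisons the enzymes and regulators stayed lower by more than 2-fold, apart from Phgdh in hippocampal cells (-0.87) and Ddit3 in olfactory bulb cells (-0.999), both under quantile normalization. Hspa5 changed sign in all 4 comparisons, for example from 0.48 to -0.55 in olfactory bulb cells under spike-in scaling.

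Genes with the pattern most like that of Asns were found by the root mean squared distance of log2 levels, centred on each gene's mean over the 4 arrays, among 5494 genes well above background on all of them. The nearest were Mvk (distance 0.06), Sox10, Rfc3, Gins4 and Ifrd2, which include a sterol synthesis enzyme and genes of DNA replication. Psat1 came 62nd, Atf4 194th and Phgdh 332nd, while Ddit3 and Trib3 were 930th and 1156th. For Hspa5 the nearest were Actg2 (distance 0.01), Ssbp3, Gna12, Xk and Atp5if1, and Calr was 1258th. With 4 arrays, many genes share a pattern, and the likeness is a description.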

How the data were processed

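Total RNA of 4 cell samples was labelled with Cy3 and hybridised to 4 Agilent rat arrays. The deposited files hold spot intensities that Agilent Feature Extraction 10.5.1.1 had background-corrected and detrended, per the file headers (the version is also in the submitters' processing notes). The value table of the series held the same intensities (largest difference 0). Here the processed intensity was put on the log2 scale and the 75th percentile of each array's non-control probes was subtracted. Of 41012 non-control probes, 254 with an outlier spot were left out and 40758 kept. No spot was saturated. Probe accessions without versions were matched to RefSeq's GRCr8 gene table for names only, since the headers give rn4 as the design build: 10783 probes had 1 symbol, 0 several and 29975 none. The brightest probe, by its mean over the 4 arrays, stood for a gene.

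A gene entered a comparison when well above background on at least 1 of its 2 arrays. Where the other array was not, that side was set to the lowest intensity among probes well above background, or to its own if higher, and the difference is given as "at least". Genes were counted at 2-fold (1 log2 unit) or more. limma 3.58.1 in R 4.3.3 fitted cell state and source as additive terms over 4 arrays with Benjamini-Hochberg adjustment at 0.05. The fit was first run on simulated data with the same noise for every gene and no source effect. That run cannot vouch for the p-values here, because the residual here is the difference between the 2 sources' changes. A summed level adds the unlogged levels of a list's genes.

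Genes named are the 10 members, up to 4 genes per pathway list with the largest mean state or source difference, the 5 genes nearest to Asns and to Hspa5, and defining genes of the marker lists. The members and the lists were chosen with earlier results of these data known. Alternatives were scaling to the array median or to 7 spike-in probes, quantile normalization, normexp with offset 50 (on median spot intensities, as no mean was given), 2 other filters, the mean over probes and the deposited value table. The dimmer Hsp90b1 probe was added after seeing the data.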

Additional observations from a re-analysis of the deposited data

Results flagged for a closer look

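Hspa5 had opposite signs in the 2 sources: neurons minus stem cells was -0.032 in hippocampal and 0.48 in olfactory bulb cells. The first value lies within the noise of spots. Between sources, Hspa5 was -0.41 in stem cells and 0.10 in neurons (olfactory bulb minus hippocampus), and Calr was -0.76 in stem cells and 0.32 in neurons. With 1 array per group these differences were not tested. With spike-in scaling the source differences were 0.45 and -0.51 for Hspa5 and 0.10 and -0.29 for Calr, so the signs were still opposite and each was the reverse of the value above.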

How the results depend on the processing

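No paired analysis was possible because each group has 1 array and so 1 replicate number. The additive limma fit already compares states within source. For the same reason no array could be left out of a comparison. No called value reversed its direction. Calr was the only member higher by 2-fold in olfactory bulb neurons, and the count was 0 in place of 1 under median scaling and under spike-in scaling. Hsp90b1 made 7 members lower there in both. Of 7022 genes, 2363 and 3306 were then lower and 1382 and 1124 higher, in place of 1402 and 1883. Spike-in scaling also gave 1 member higher (Hsp90b1, 1.27) and 1 lower (Trib3) between stem cells, in place of 0 and 2. Of 6028 genes, 1129 were then higher and 70 lower, in place of 251 and 417. Between neurons it gave 4 members lower in place of 1. Of 7000 genes, 1490 were then lower in place of 560. limma called 3 members for state under quantile normalization (Psat1, Asns and Trib3) in place of 5, and 4 under spike-in scaling. It called 6 under median scaling, normexp and the filter on all 4 arrays. Over all 7112 genes, lower calls for state ran from 503 (quantile normalization) to 1764 (median scaling), in place of 860. For source limma called 1 member (Trib3) in place of 0 under normexp and with genes above background on all 4 arrays only. Of 36 member differences, the number that moved by more than the noise of spots was 36 under spike-in scaling, 25 under quantile normalization, 18 under median scaling, 5 under normexp, 2 with the mean over probes, and 0 under the other filters and the deposited table. The dimmer Hsp90b1 probe moved 3 of 4. Spike-in scaling moved the median of all genes by 0.44 and -0.97 in the state comparisons of hippocampal and olfactory bulb cells and by 0.86 and -0.60 in the source comparisons of stem cells and neurons, and median scaling by -0.46, -0.48, -0.02 and -0.10. The share of higher genes among those called in these 4 comparisons was 44.9%, 57.3%, 37.6% and 48.9%, against 66.6%, 25.4%, 94.2% and 14.8% with spike-in scaling and 28.8%, 36.9%, 35.0% and 42.9% with median scaling. Psat1 is the member nearest to background on the neuron arrays, where signal over background limits its fold.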

Other observations

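Apart from the 4 ER genes described, 17 gene symbols had the ER stress response element in the 250 bases before their start, and 7 of these were measured. In hippocampal neurons 3 were lower and 1 higher by 2-fold or more, and in olfactory bulb neurons 5 were lower and 1 higher. Thus 42.9% and 71.4% of the 7 were lower, against 26.8% and 20.0% of all genes. In each source 14.3% were higher, against 21.8% and 26.8% of all genes. The 7 included the lectin chaperone Canx (-0.62 and -1.20), the partner of calreticulin, and the BiP co-chaperone Dnajc3 (-0.02 and 0.42). They also included Birc5 (-3.31 and -3.23), a gene of cell division, and the zinc finger gene Zfp57 (at least 3.53 and 4.76). The rest were Creld2 (-1.58 and -1.35), Zfand2a (-1.02 and -1.02) and Hnrnpa3 (-0.82 and -1.12). All 7 genes were named after their values were seen. Among 982 other symbols with the CARE, 125 were compared in hippocampal and 133 in olfactory bulb cells. Of these, 27.2% and 20.3% were lower and 25.6% and 28.6% higher in neurons, close to the shares over all genes.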
